A study of Mus musculus with 6 samples.

Results

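The colony-stimulating factors and their receptors were examined in gonadal white adipose tissue (gWAT), a visceral depot that in male mice lies against the testis. The 8 genes are the ligands *Csf1*, *Il34*, *Csf2* and *Csf3* and the receptor chains *Csf1r*, *Csf2ra*, *Csf2rb* and *Csf3r*. They were listed by symbol and found through their NCBI gene identifiers, and all 8 are among the 19790 genes with deposited read counts. RNA was sequenced from wild-type C57BL/6 mice, 3 on a normal chow diet (NCD) and 3 on a high-fat diet (HFD), each fed for 8 weeks, with 1 library per mouse. The labels give 6 weeks as the age at which feeding began, and the study's methods give 8 weeks for its HFD mice. No allele, transgene or drug distinguishes the groups, so that diet is the labelled difference. The tissue holds adipocytes, stromal, endothelial and immune cells together, and in such bulk RNA fewer cells of a type and less RNA per cell cannot be told apart.

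Libraries held between 49575113 and 66360046 counts. The library of NCD replicate 1 gave 58.6% of its counts to 11 secretory genes of the seminal vesicle, while NCD replicates 2 and 3 held 11.2% and 2.30% and no HFD library more than 0.000012%. The same library held 1759 TMM-scaled CPM, counts scaled to a common library size, of 6 adipocyte markers, against 7051 and 9337 in the other NCD libraries and 3473 to 6768 on HFD. TMM scaling corrects the library total for a few very abundant genes, with a factor of 0.496 for NCD replicate 1 and factors of 1.02 to 1.27 for the others. Results for the members are therefore given with all 6 libraries and again without NCD replicate 1. Where 3 values are given for a diet, they belong to replicates 1, 2 and 3 in that order.

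Colony-stimulating factors are secreted proteins that keep myeloid cells alive and drive their division and maturation. CSF1 (also called M-CSF) and interleukin 34 bind the same receptor tyrosine kinase, CSF1R, on which macrophages depend. CSF2 (GM-CSF) acts through an alpha chain, CSF2RA, that binds it, and a beta chain, CSF2RB, that carries the signal and is shared with the receptors of interleukin 3 and interleukin 5. CSF3 (G-CSF) acts through CSF3R and drives the production and release of neutrophils. In obese fat pads, macrophages gather around dying adipocytes.

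The receptor chains were higher on HFD, and the ligands differed less uniformly. In the quasi-likelihood test of edgeR, adjusted by Benjamini and Hochberg over every tested gene, *Csf2ra*, *Csf2rb* and *Csf3r* rose, that is 3 of the 7 members that had enough counts to be tested, where 5.58% of all 15241 tested genes were called higher. The median log2 fold change was 1.62 over the tested members and -0.08 over all tested genes. *Csf1r* lay just outside the threshold (adjusted p = 0.0536). The diets were fully separated, with HFD higher, for 4 of the 8 members, the receptor chains, and for 20.5% of all tested genes. Without NCD replicate 1, 3 of 8 members were called higher, *Csf1r*, *Csf2ra* and *Csf2rb*, against 10.7% of all genes. With all libraries, DESeq2 and limma voom with sample weights each called 5 of 7 members higher, the receptor chains and *Csf1*, where they called 14.1% and 18.5% of all genes higher. *Csf2* had too few counts for the test. The labels do not say how the mice were housed or paired, and p-values measure the spread between these mice.

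**Figure D1:**
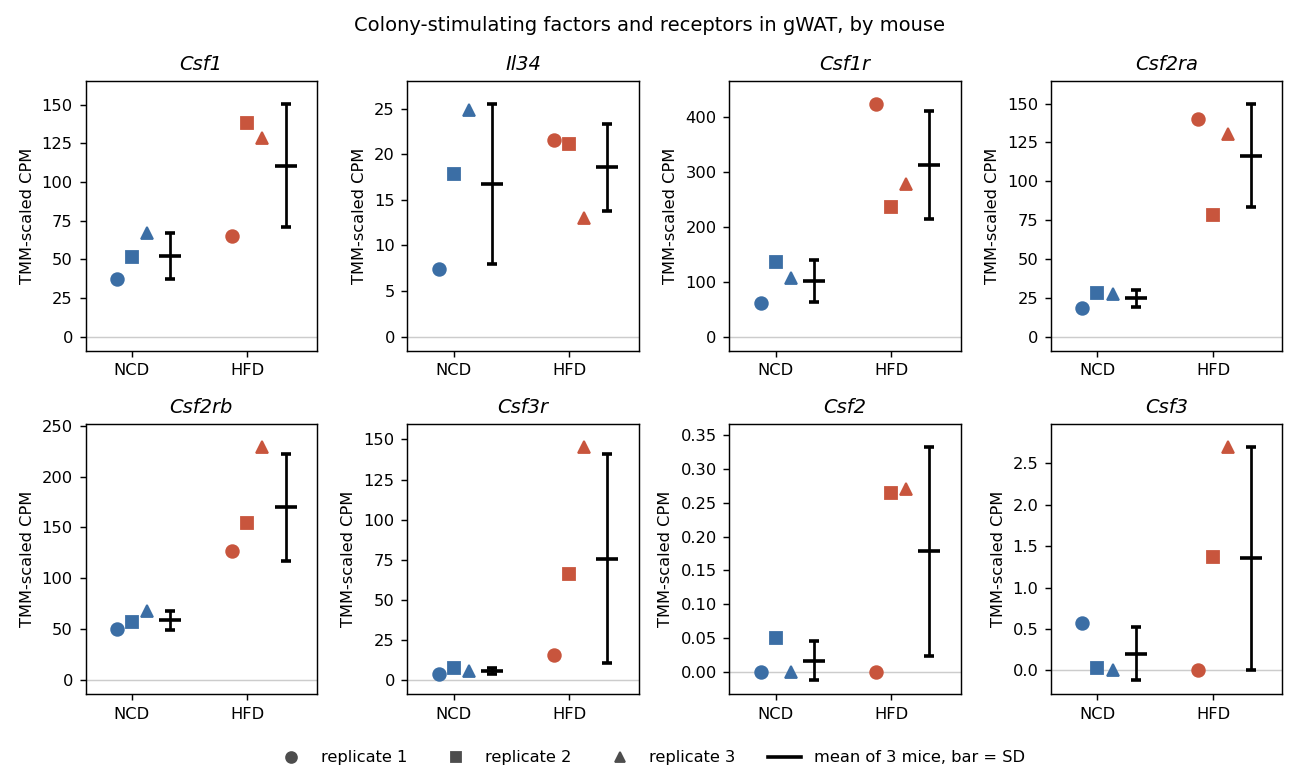
TMM-scaled CPM (vertical axes, linear, a separate scale for each gene) of the 8 members in 3 NCD-fed and 3 HFD-fed mice; points are mice, with a symbol for each replicate number, and the black bars are means and SD. The receptor chains *Csf1r*, *Csf2ra*, *Csf2rb* and *Csf3r* do not overlap between the diets, while *Csf2* and *Csf3* were seen on HFD in replicates 2 and 3 and not in replicate 1.

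*Csf1* (NCBI gene 12977, GRCm38 chromosome 3, 107741048 to 107760469), the ligand that supports most tissue macrophages, measured 37.6, 51.7 and 66.9 TMM-scaled CPM in the NCD-fed mice, against 65.1, 138 and 129 in the HFD-fed mice. The diets overlapped, since HFD replicate 1 lay below NCD replicate 3, and HFD replicates 2 and 3 stood above the other 4 mice. The mean was 52.1 ± 14.7 on NCD and 111 ± 39.6 on HFD (SD, n = 3 mice each). The log2 fold change of *Csf1* was 1.09 ± 0.352 (SE, edgeR adjusted p = 0.106) and 0.91 without NCD replicate 1 (edgeR adjusted p = 0.121).

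*Il34* (NCBI gene 76527, GRCm38 chromosome 8, 110741829 to 110805949), the other ligand of CSF1R, best known from skin and brain, measured 7.46, 17.9 and 24.8 TMM-scaled CPM in the NCD-fed mice, against 21.5, 21.1 and 13.1 in the HFD-fed mice. The values of the diets overlapped throughout, with the lowest and the highest both on NCD. Its log2 fold change was 0.15 ± 0.454 (SE, edgeR adjusted p = 0.845), and turned to -0.19 ± 0.269 (SE, edgeR adjusted p = 0.644) without NCD replicate 1. The lowest value came from that library.

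*Csf1r* (NCBI gene 12978, GRCm38 chromosome 18, 61105572 to 61131139), the receptor of both ligands and a defining gene of macrophages and monocytes, measured 61.5, 136 and 107 TMM-scaled CPM in the NCD-fed mice. The HFD-fed mice had 424, 237 and 278. All HFD-fed mice lay above all NCD-fed mice, the lowest of them 1.74 times the highest NCD value, and HFD replicate 1 was the highest. The mean was 101 ± 37.6 on NCD and 313 ± 98.4 on HFD (SD, n = 3 mice each), and the edgeR fit put the difference, just short of the threshold, at 1.62 ± 0.374 (log2, SE, adjusted p = 0.0536). Without NCD replicate 1 *Csf1r* passed, at 1.38 ± 0.292 (log2, SE, edgeR adjusted p = 0.0276). Over the fits without a mouse its adjusted p from edgeR lay between 0.0276 and 0.160.

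Markers of macrophages moved in the same direction as *Csf1r*. The 12 markers summed to between 530 and 1186 TMM-scaled CPM on NCD and between 2999 and 4029 on HFD, none was at 0 in all libraries, and 7 of the 12 rose by edgeR (9 without NCD replicate 1, and 10 by DESeq2), with a median log2 fold change of 2.09. Their part in the change of *Csf1r* was not tested. Relative to the mean log2 level of these markers in the same library, *Csf1r* was at 1.06, 1.17 and 0.94 in the NCD-fed mice and at 1.34, 0.52 and 0.35 in the HFD-fed mice. The diets overlapped on this scale, and the mean difference (HFD minus NCD) was -0.32 (two-sided exact permutation p = 0.4, adjusted p = 0.56 over 7 ratios). Against *Adgre1*, *Cd68* and *Itgam* alone the difference was -1.25 and the diets did not overlap (two-sided exact permutation p = 0.1, the lower limit). These 3 markers had log2 fold changes of 2.86, 3.17 and 2.64, above the median of the 12. A ratio to them is therefore lower on HFD through the choice of markers.

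*Csf2* (NCBI gene 12981, GRCm38 chromosome 11, 54247270 to 54249899), a cytokine that lymphocytes, stromal cells and macrophages release on activation, was close to absent from the counts. It had 0, 3 and 0 counts in the NCD-fed mice and 0, 22 and 17 counts in the HFD-fed mice. The counts on HFD came from replicates 2 and 3, and a count of 0 in HFD replicate 1 allows a level of up to 0.0602 CPM. Pooled over each diet, the CPM on HFD was 13.7 times that on NCD (95% exact interval 4.36 to 69.4, for counting error only). This CPM is not TMM-scaled, and the pooled ratio was 8.52 without NCD replicate 1 (95% exact interval 2.71 to 43.1). The ratio of mean TMM-scaled CPM with all libraries was 10.7. Without NCD replicate 1 *Csf2* entered the test, with 2.73 ± 1.76 (log2, SE, edgeR adjusted p = 0.312). With all libraries and no filter on low counts, the edgeR test gave a log2 fold change of 3.14 with a standard error of 1.81 (adjusted p = 0.325).

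*Csf2ra* (NCBI gene 12982, GRCm38 chromosome 19, 61217191 to 61228461), the alpha chain that binds CSF2, measured 18.3, 28.4 and 27.2 TMM-scaled CPM in the NCD-fed mice. The HFD-fed mice had 140.03, 78.6 and 131. The diets did not overlap, and the lowest HFD value was 2.76 times the highest NCD value. The mean rose from 24.6 ± 5.53 to 116 ± 33.1 (SD, n = 3 mice each), and the edgeR fit put the difference at 2.24 ± 0.297 (log2, SE, adjusted p = 0.0219). Without NCD replicate 1 it was 2.08 (edgeR adjusted p = 0.00980), and without any single other mouse it stayed between 2.09 and 2.47 while the adjusted p from edgeR rose to between 0.0585 and 0.0978.

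*Csf2rb* (NCBI gene 12983, GRCm38 chromosome 15, 78325800 to 78351001), the signalling beta chain, measured 50.002, 57.3 and 68.1 TMM-scaled CPM in the NCD-fed mice. The HFD-fed mice had 127, 154 and 229. The diets did not overlap, and HFD replicate 3 was the highest. The mean rose from 58.5 ± 9.12 to 170 ± 52.6 (SD, n = 3 mice each), and the edgeR fit put the difference at 1.54 ± 0.267 (log2, SE, adjusted p = 0.0300). Without NCD replicate 1 it was 1.45 (edgeR adjusted p = 0.0236), and without any single other mouse it stayed between 1.28 and 1.72 with an adjusted p from edgeR between 0.0581 and 0.107.

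The mouse has a near-identical neighbour of *Csf2rb* on the same chromosome, *Csf2rb2*, whose product serves interleukin 3 alone, and the treatment of reads that fit both is not stated. *Csf2rb2* measured 8.00, 25.4 and 22.2 TMM-scaled CPM in the NCD-fed mice, against 80.9, 69.1 and 104 in the HFD-fed mice. It rose by 2.19 ± 0.449 (log2, SE, edgeR adjusted p = 0.0431). With the counts of the pair summed, the log2 fold change was 1.73 ± 0.277 (SE, edgeR adjusted p = 0.0256). The level of *Csf2rb* per exon length was between 1.42 and 5.66 times that of *Csf2rb2*, highest in NCD replicate 1, and the split between them is uncertain.

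The balance between the chains of the CSF2 receptor was compared within each mouse. Within a library, the log2 ratio of *Csf2rb* to *Csf2ra* counts was 1.40, 1.00 and 1.31 in the NCD-fed mice and -0.14, 0.97 and 0.81 in the HFD-fed mice. All HFD-fed mice lay below all NCD-fed mice, and HFD replicate 1 stood lowest. The mean ratio differed by -0.69 (two-sided exact permutation p = 0.1, which is the lower limit for 3 mice against 3, adjusted p = 0.467 over 7 ratios), by -0.61 without NCD replicate 1, and by -0.35 without HFD replicate 1.

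*Csf3* (NCBI gene 12985, GRCm38 chromosome 11, 98700183 to 98703631), the neutrophil growth factor, had 19, 2 and 0 counts in the NCD-fed mice and 0, 114 and 169 counts in the HFD-fed mice. These correspond to 0.578, 0.0334 and 0 TMM-scaled CPM on NCD and 0, 1.37 and 2.69 on HFD. HFD replicate 1 was at 0, as it was for *Csf2*, so the diets overlapped. The log2 fold change of *Csf3* was 2.84 with a standard error of 1.99 (edgeR adjusted p = 0.376). Of the 21 NCD counts, 19 were in the library rich in seminal vesicle RNA, and without it the log2 fold change was 6.15 ± 2.41 (SE, edgeR adjusted p = 0.125).

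*Csf3r* (NCBI gene 12986, GRCm38 chromosome 4, 126023441 to 126044975), the CSF3 receptor carried above all by neutrophils and their precursors and at lower levels by monocytes, showed the largest log2 fold change of the tested members with 6 libraries. It measured 4.02, 7.74 and 5.51 TMM-scaled CPM in the NCD-fed mice, against 15.8, 66.2 and 145 in the HFD-fed mice. The diets did not overlap, but the HFD-fed mice spread widely, with replicates 2 and 3 at 4.20 and 9.19 times replicate 1. The mean rose from 5.76 ± 1.87 to 75.7 ± 65.1 (SD, n = 3 mice each), and the edgeR fit put the difference at 3.71 ± 0.815 (log2, SE, adjusted p = 0.0495). The call was close to the threshold and was lost when any 1 mouse was left out, where the log2 fold change lay between 2.84 and 4.20 and the adjusted p from edgeR between 0.0533 (without NCD replicate 1) and 0.140 (without HFD replicate 3).

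The summed neutrophil markers stood with *Csf3r*, though not every marker did. The sum of the 11 markers was 1.13, 2.26 and 2.05 TMM-scaled CPM in the NCD-fed mice and 5.56, 93.1 and 283 in the HFD-fed mice. The HFD-fed mice ranked in the same order by *Csf3r*, *Csf3* and *Csf2rb*. The sum came mostly from *S100a9* and *S100a8*, calcium-binding proteins of neutrophils and some monocytes, at 164 and 76.6 TMM-scaled CPM in HFD replicate 3. *Cxcr2*, a chemokine receptor of mature neutrophils, was at 0.104, 10.5 and 26.6 TMM-scaled CPM in the HFD-fed mice. *Ly6g*, which defines mouse neutrophils, was at 0 in all NCD libraries and in HFD replicate 1 and reached 0.175 TMM-scaled CPM in HFD replicate 3, and *Elane* and *Mpo*, granule genes of immature neutrophils, did not exceed 0.651 in any library. None of the 6 neutrophil markers tested passed by edgeR, while 4 had an unadjusted p under 0.05 and DESeq2 and limma voom called 4 and 2. In either direction, these tools called 3904 and 5570 of all 15241 tested genes. Without NCD replicate 1, 1 of 7 passed, *S100a8*, at 5.36 (log2, edgeR adjusted p = 0.0492). *Elane*, *Ltf* and *Camp* had lower means on HFD, at 0.255, 0.215 and 0.0332 TMM-scaled CPM against 0.372, 0.271 and 0.126 on NCD. The other listed markers had higher means on HFD, with *Mpo* and *Ngp* at no more than 0.0956 in any library. The part of the neutrophil markers in the change of *Csf3r* was not tested.

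**Figure D2:**
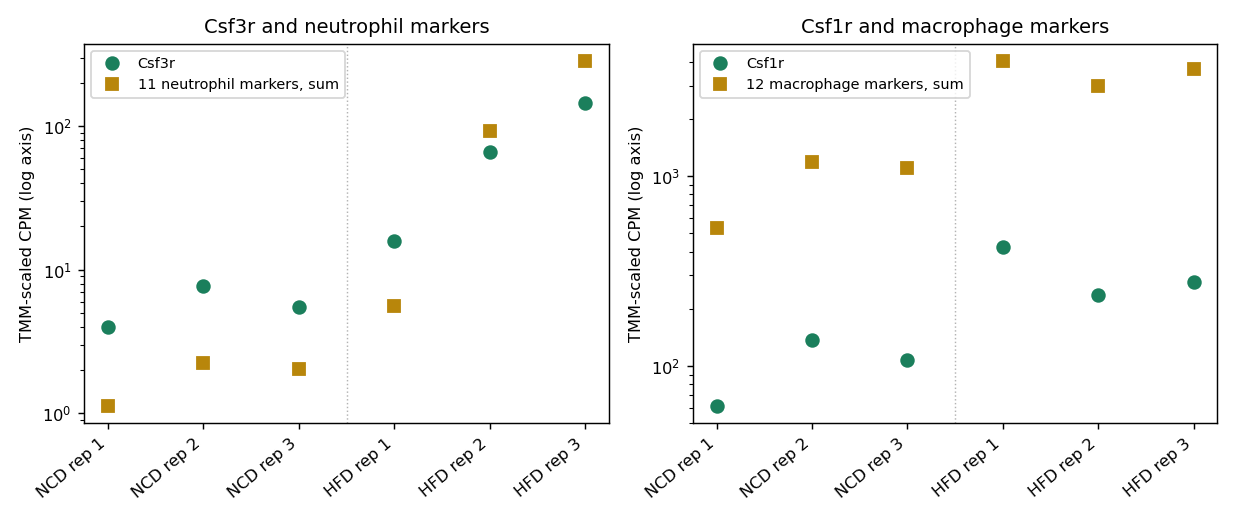
TMM-scaled CPM (vertical log axes) of *Csf3r* beside the sum of 11 neutrophil markers (left) and of *Csf1r* beside the sum of 12 macrophage markers (right) in each of the 6 libraries. In HFD replicate 1 the neutrophil markers sum to 5.56 against 93.1 and 283 in HFD replicates 2 and 3, while the macrophage markers lie between 2999 and 4029 in all HFD libraries.

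The HFD-fed mice also differed among themselves. HFD replicate 1 had the highest *Csf1r*, *Csf2ra* and *Il34* of its group and the lowest *Csf1*, *Csf2rb* and *Csf3r*, and no count of *Csf2* or *Csf3*. HFD replicates 2 and 3 had about the same *Csf1*, at 2.12 and 1.97 times replicate 1. For *Csf3r*, even HFD replicate 1 was 2.04 times the highest NCD-fed mouse. These are values of single mice, and no test applies within 3 mice.

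**Figure D3:**
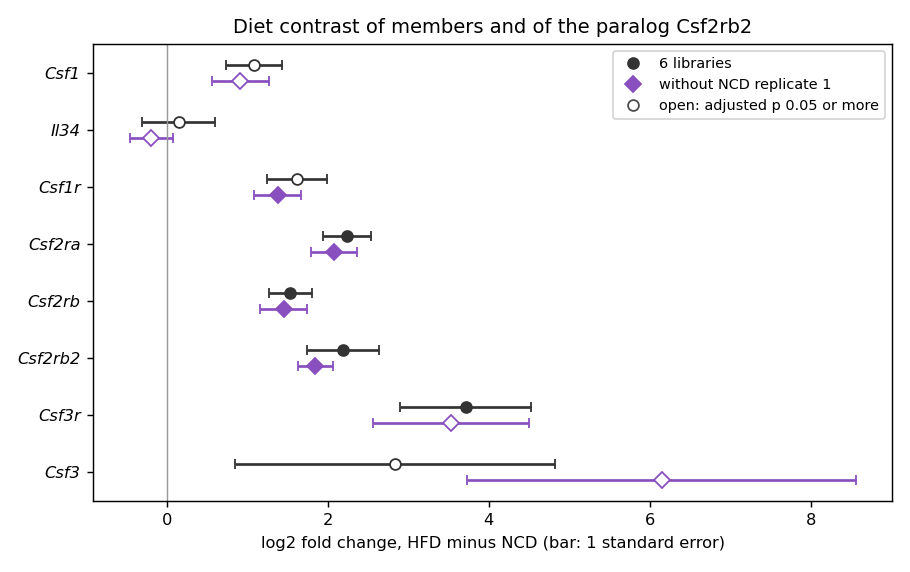
Log2 fold change (HFD minus NCD, horizontal axis) with 1 standard error from edgeR for the 7 tested members and *Csf2rb2*, with 6 libraries (circles) and without NCD replicate 1 (diamonds); filled symbols have an adjusted p under 0.05. *Csf2ra* and *Csf2rb* are filled in both fits, *Csf3r* in the first and *Csf1r* in the second, and *Il34* lies on opposite sides of 0.

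Levels of different genes were compared as FPKM, here the TMM-scaled CPM divided by the exon length in kilobases. On NCD the order of the mean FPKM was *Csf1r* (20.8 ± 7.70), *Csf2ra* (13.2 ± 2.97), *Csf2rb* (11.2 ± 1.74), *Csf1* (11.03 ± 3.11), *Il34* (9.15 ± 4.79), *Csf3r* (1.64 ± 0.535), *Csf3* (0.144 ± 0.230) and *Csf2* (0.0209 ± 0.0362; SD, n = 3 mice for each). From *Csf1r* to *Il34*, neighbours in this order differed by less than the larger of their SDs, while *Il34* lay above *Csf3r* by more. On HFD the order was *Csf1r* (64.0 ± 20.1), *Csf2ra* (62.6 ± 17.8), *Csf2rb* (32.5 ± 10.1), *Csf1* (23.4 ± 8.39), *Csf3r* (21.6 ± 18.6), *Il34* (10.2 ± 2.61), *Csf3* (0.957 ± 0.953) and *Csf2* (0.223 ± 0.193; SD, n = 3 mice for each). There *Csf2ra* lay above *Csf2rb* by more than the larger SD, and *Csf1r* and *Csf2ra*, *Csf2rb* and *Csf1*, *Csf1* and *Csf3r*, and *Csf3r* and *Il34* did not differ beyond it.

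Between the ligands of CSF1R, *Csf1* had the higher FPKM in every mouse, at 1.95, 1.12 and 1.04 times *Il34* in the NCD-fed mice and at 1.17, 2.53 and 3.81 times in the HFD-fed mice. HFD replicates 2 and 3 stood above the other mice and HFD replicate 1 lay within the NCD range. The log2 ratio of their counts differed by 0.80 between the diets (two-sided exact permutation p = 0.2, adjusted p = 0.467 over 7 ratios). The log2 ratio of *Csf1r* to *Csf1* was 0.70, 1.39 and 0.67 in the NCD-fed mice and 2.69, 0.78 and 1.11 in the HFD-fed mice, with HFD replicate 1 apart from the other 5 mice (difference 0.61, two-sided exact permutation p = 0.5, adjusted p = 0.583, and 0.03 without HFD replicate 1).

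The other receptor chains were also set against the macrophage markers of the same library, on the log2 scale. *Csf2ra* was at -0.63, -1.07 and -1.02 in the NCD-fed mice and at -0.26, -1.06 and -0.74 in the HFD-fed mice. The difference of 0.22 (two-sided exact permutation p = 0.6, adjusted p = 0.6) turned to -0.71 when *Adgre1*, *Cd68* and *Itgam* alone stood for the macrophages. *Csf2rb* differed by -0.47 (two-sided exact permutation p = 0.2, adjusted p = 0.467), from 0.77, -0.07 and 0.29 in the NCD-fed mice to -0.40, -0.09 and 0.07 in the HFD-fed mice. *Csf3r* was at -2.57, -2.88 and -3.23 in the NCD-fed mice and at -3.37, -1.31 and -0.59 in the HFD-fed mice, a difference of 1.14 (two-sided exact permutation p = 0.4, adjusted p = 0.56), with HFD replicates 2 and 3 above the other 4 mice. Against the 12 markers the diets overlapped for each of these chains. Against the 3 markers *Csf2rb* differed by -1.41, and *Csf2ra* and *Csf2rb* did not overlap (two-sided exact permutation p = 0.1 for each), while *Csf3r* differed by 0.20 (two-sided exact permutation p = 0.9). The 3 markers rose more than the median of the 12, which lowers each of these ratios on HFD.

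**Figure D4:**
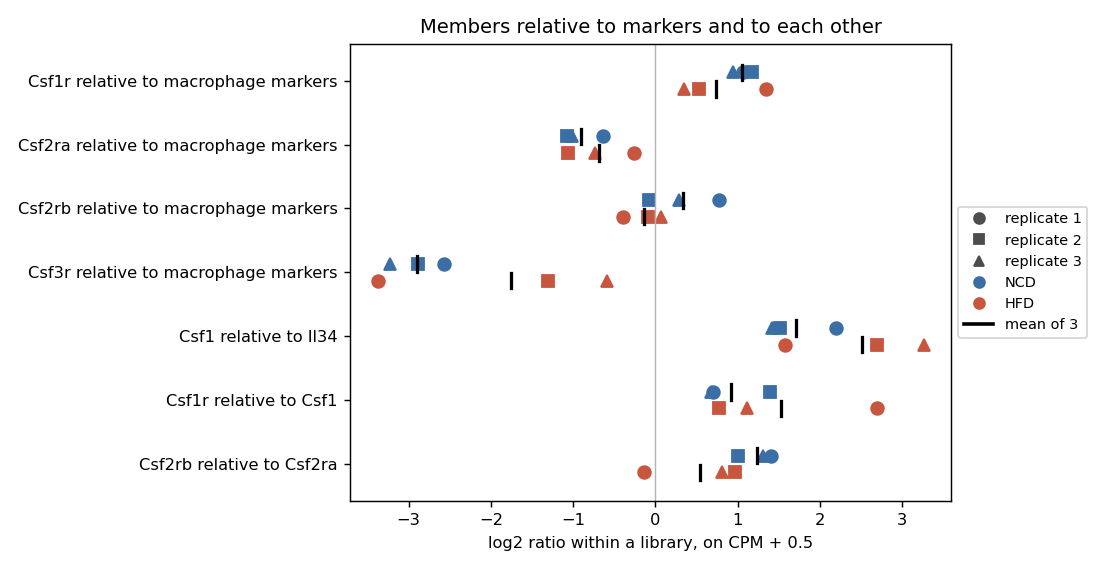
Log2 ratios within a library (horizontal axis, on CPM + 0.5) of receptor chains to the mean of 12 macrophage markers and of members to each other; points are mice, coloured by diet with a symbol for each replicate number, and black bars are means of 3. *Csf2rb* relative to *Csf2ra* is the ratio whose diets do not overlap, and HFD replicate 1 is the highest in *Csf1r* relative to *Csf1*, at 2.69.

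Genes related to the members were counted by list. Among interleukin 3, interleukin 5 and their receptor chains, which share the beta chain, *Csf2rb2* and *Il3ra*, the alpha chain for interleukin 3, rose (2 of 2 tested of 5 listed). *Il3ra* went from 7.94 ± 1.85 to 26.2 ± 2.62 TMM-scaled CPM (SD, n = 3 mice each), and the edgeR fit put the difference at 1.72 ± 0.229 (log2, SE, adjusted p = 0.0219). *Il5* and *Il5ra* did not exceed a mean of 0.128 TMM-scaled CPM on either diet, and *Il3* is not analysed here. Of 8 receptor tyrosine kinases of the CSF1R class and their ligands, none was called by edgeR (3 had an unadjusted p under 0.05, DESeq2 called 3 and limma voom 4), and the median log2 fold change was 0.57. In either direction, DESeq2 and limma voom called 3904 and 5570 of all 15241 tested genes. *Flt3*, which supports dendritic cell precursors, had 1.13 (edgeR adjusted p = 0.0910), and *Kit*, the receptor of stem cell factor, 0.51 (edgeR adjusted p = 0.398).

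Of 18 genes that act close to the receptors, 10 rose and none fell, with a median log2 fold change of 1.81 against -0.08 over all tested genes. The same number rose without NCD replicate 1, with a median of 1.74. *Tyrobp*, an adaptor that works with CSF1R and other myeloid receptors, rose from 30.8 ± 10.7 to 197 ± 58.0 TMM-scaled CPM (SD, n = 3 mice each; log2 fold change 2.67, edgeR adjusted p = 0.0219), and the kinase *Syk*, which binds it, by 2.74 (edgeR adjusted p = 0.0235). The Src-family kinases *Fgr* and *Lyn* rose by 2.94 and 1.76 on the log2 scale, *Pik3cd*, *Plcg2* and the adaptor *Grb2* by 1.99, 1.95 and 0.76, and the phosphatases *Inpp5d* and *Ptpn6*, which limit such signals, by 2.05 and 1.85 (adjusted p from 0.0212 to 0.0465 from edgeR).

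The kinase and transcription factors directly below CSF2RB and CSF3R did not pass. *Jak2* had a log2 fold change of 0.20, *Stat3* 0.67, *Stat5a* -1.06 and *Stat5b* -0.82 (adjusted p from 0.156 to 0.584 from edgeR). Without NCD replicate 1 these were 0.38, 0.57, -0.50 and 0.01 (adjusted p from 0.189 to 0.952 from edgeR). *Stat5a* measured 179, 78.6 and 73.3 TMM-scaled CPM in the NCD-fed mice and 37.4, 54.3 and 67.2 in the HFD-fed mice, without overlap. Of the inhibitors that these pathways induce, *Socs3* had 3.10 (edgeR adjusted p = 0.0838) and *Socs1* 0.90 (edgeR adjusted p = 0.200). Its mean was 7.83 ± 2.64 TMM-scaled CPM on NCD and 67.1 ± 57.7 on HFD (SD, n = 3 mice each). *Cish*, a STAT5 target, had -1.05 (edgeR adjusted p = 0.283), and -0.15 without NCD replicate 1 (edgeR adjusted p = 0.765).

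Of 9 transcription factors of the myeloid lineage, 6 rose. *Spi1*, which encodes PU.1, the factor that myeloid cells need to express *Csf1r* and other receptors of this family, rose from 13.2 ± 5.20 to 84.2 ± 12.2 TMM-scaled CPM (SD, n = 3 mice each; log2 fold change 2.67, standard error 0.334, edgeR adjusted p = 0.0214). *Egr2*, *Runx1*, *Irf8* and *Mitf* rose by 3.17, 1.83, 1.297 and 1.08 on the log2 scale (adjusted p from 0.0212 to 0.0477 from edgeR). *Cebpa*, which adipocytes also express, had -0.73 with all libraries (edgeR adjusted p = 0.407) and fell without NCD replicate 1, by 1.14 (edgeR adjusted p = 0.0164).

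The macrophage markers that rose were *Cd68* (3.17), *Fcgr1* (3.16), *Adgre1* (2.86), *Itgam* (2.64), *Aif1* (2.21), *C1qb* (1.95) and *C1qa* (1.48), as log2 fold changes (adjusted p from 0.0231 to 0.0494 from edgeR). Among those that did not pass, *Cd14*, *Mrc1* and *Lyz2* had 2.45, 1.96 and 1.65 (adjusted p from 0.0525 to 0.0823 from edgeR). Without NCD replicate 1 these passed and *Aif1* did not (edgeR adjusted p = 0.0501 for *Aif1*). *Mertk*, a receptor for dead cells, had 0.23 and the scavenger receptor *Cd163* -0.07 (adjusted p = 0.545 and 0.921 from edgeR). *Csf1r*, at 1.62, lay between *Lyz2* and *C1qa*.

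**Figure D5:**
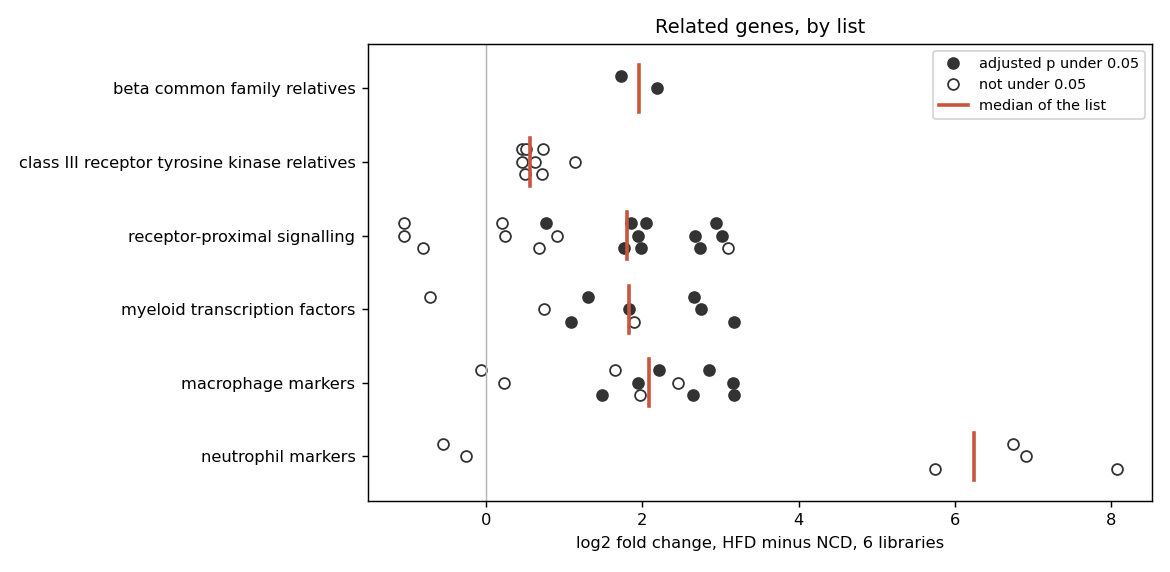
Log2 fold change (HFD minus NCD, 6 libraries, horizontal axis) of each tested gene in 6 lists of related genes and markers; filled points have an adjusted p under 0.05 from edgeR and red bars are list medians. The medians are 0.57 for the receptor tyrosine kinase relatives, 1.81 for receptor-proximal signalling, 1.83 for the transcription factors and 2.09 for the macrophage markers, and no neutrophil marker is filled.

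Because *Spi1* and several receptor chains rose together, the 250 bases before the RefSeq start (GRCm38.p6) were searched on both strands for the letters GAGGAA, the core of the sequence that PU.1 binds, and for TTGCNNAA, a form of the C/EBP sequence. Windows were at hand for 4 members, *Csf1*, *Csf2*, *Csf2ra* and *Csf3r*. The PU.1 letters were in those of *Csf2ra* and *Csf3r* and in 23.3% of all 32851 windows of this length, and the C/EBP letters were in that of *Csf2* and in 9.56% of all windows. The stretches that hold the PU.1 letters are given because these receptor chains rose, 5′ to 3′ on the gene's strand with the matched letters in capitals. That of *Csf2ra* lies at chr19:61228419-61228448 (minus strand), directly before the start used for the window, and holds the letters in adjacent copies. That of *Csf3r* lies at chr4:126024561-126024590 (plus strand). Each gene has other annotated starts, and both stretches lie inside the RefSeq extents given above. In GENCODE vM21, exon 1 of a *Csf2ra* transcript covers 11 of the 30 bases, and exon 1 of *Csf3r* covers all 30, so that neither is purely upstream sequence. A match is a description of the letters, and binding was not measured.

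Csf2ra: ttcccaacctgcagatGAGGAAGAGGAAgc
Csf3r: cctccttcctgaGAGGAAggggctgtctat

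For each tested member but *Csf3*, whose mean was under 1 TMM-scaled CPM, the 3 genes with the most similar pattern were found by Pearson's r of log2(TMM-scaled CPM + 0.5) over the 6 libraries, among 13587 genes with a mean of at least 1. With 6 libraries of 2 diets many genes reach high values, and r is a description. *Csf3r* was most like *S100a8* (r = 1.00), *Nlrp3*, a sensor of the inflammasome (r = 0.999), and *Ltb4r1*, a leukotriene receptor of neutrophils and other leukocytes (r = 0.998). *S100a8* averaged 0.637 TMM-scaled CPM on NCD and 35.1 on HFD. *Csf1r* was most like *Rgs18*, *Mcm5* and *Leprotl1* (r from 0.998 to 0.999), and *Csf2ra* like *Snx5*, *Tcirg1*, a subunit of the proton pump, and *Brms1* (r from 0.999 to 1.00). *Csf2rb* was most like *Hilpda*, a lipid droplet protein induced by hypoxia, *Dennd1a* and *Ddhd1* (r from 0.996 to 0.998). *Csf1* was most like *Rab39*, *Pcsk5* and *Arg1*, an arginase of macrophages that averaged 4.49 TMM-scaled CPM on NCD and 153 on HFD (r from 0.989 to 0.995), and *Il34* like *Akap1*, *Bmp6* and *D3Ertd751e* (r from 0.993 to 0.996).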

How the data were processed

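A column per mouse of unnormalized read counts, keyed by NCBI gene identifier, was deposited. The submitters' processing notes name bcl2fastq 2.20.0, Trimmomatic, HISAT2 2.1.0, StringTie 1.3.4d and DESeq2 and the builds mm10 and GRCm38. The labels name a stranded mRNA kit, while the sources used here do not name the annotation or the counting options. HFD replicate 3 carries the number 4 in its column. No column was without a sample (0).

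Of the 19790 identifiers, 19742 were given symbols from RefSeq GRCm38.p6, and 17793 had exon lengths (union of exons in GENCODE vM21 basic transcripts). Genes passed filterByExpr at a count of 10 and a total of 15, TMM factors were applied, and diets were compared in edgeR 4.0.16 (R 4.3.3, glmQLFit and glmQLFTest). P-values were adjusted by Benjamini-Hochberg for the 15241 remaining genes and called under 0.05. A standard error is the fold change (log2) over the root of its F statistic. Ratios within a library used CPM + 0.5 and exact permutation tests over mice (scipy 1.17.1). Alternatives were no filter, median-of-ratios or total-count scaling, removal of the 11 seminal vesicle genes before scaling, DESeq2 1.42.0, limma 3.58.1 (voom with sample weights), blocking on replicate number, leaving out each mouse, another pseudocount (0.1) and a shorter marker list. Summing *Csf2rb* and *Csf2rb2* was added after the data had been seen. Procedures were tested on simulated data.

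The members and all gene lists were chosen with earlier results of these data known. The text names the members, selected partners, listed genes past the threshold and the 3 genes most similar to each tested member, and other listed genes for contrast after their values were seen. Some listed genes are not reported here by name. Libraries within a diet were no duplicates (chi-square/df 111 to 3438). Intervals and floors (3 counts) cover counting error only. RefSeq places from 0 to 3 other genes over each member, all non-coding.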

Additional observations from a re-analysis of the deposited data

How the results depend on the processing

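The numbers of genes and of members past the adjusted p in edgeR, 1139 and 3, were 3904 and 5 with DESeq2 and 5570 and 5 with limma voom and sample weights. Over the fits without a mouse they ranged from 2 to 3234 and from 0 to 3, with 3234 and 3 without NCD replicate 1, and 2, 2, 2, 7 and 4 genes and 0 members without NCD replicates 2 and 3 and HFD replicates 1, 2 and 3, where 4 to 6 members had an unadjusted p under 0.05 in edgeR. Same-numbered mice did not deviate together (correlations from -0.05 to -0.0069). These deviations include the seminal vesicle RNA of the NCD libraries, so they cannot exclude a pairing. With the replicate block, 12 genes and 0 members passed (5 with an unadjusted p under 0.05), and *Csf2ra*, *Csf2rb* and *Csf3r* had log2 fold changes of 2.22, 1.51 and 3.26 (adjusted p from 0.0675 to 0.0851 in edgeR), in a fit with fewer residual degrees of freedom. The share of all genes with an unadjusted p under 0.05 was not counted. Numbers of members or listed genes at that cutoff therefore have no background beside them. Of the 1139 edgeR calls, 74.6% were higher on HFD, against 55.1% with DESeq2, 50.7% with limma voom and 51.5% without NCD replicate 1.

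*Csf1* passed with DESeq2 (1.09, adjusted p = 0.0280) and limma voom (1.146, adjusted p = 0.0122), and *Csf1r* with DESeq2 (1.63, adjusted p = 0.000593) and limma voom (1.11, adjusted p = 0.0114). *Csf2rb* lost the threshold with total counts alone (2.01, adjusted p = 0.0515 in edgeR), which shifted the all-gene median (-0.08) to 0.45, and *Csf3r* without a filter on low counts (3.73, adjusted p = 0.0571 in edgeR), where more genes are adjusted for. Over the fits without a mouse, log2 fold changes ranged from 0.91 to 1.36 for *Csf1*, 1.35 to 1.89 for *Csf1r*, 2.08 to 2.47 for *Csf2ra*, 1.28 to 1.72 for *Csf2rb*, 1.85 to 6.15 for *Csf3* and 2.84 to 4.20 for *Csf3r*. They were -0.19 to 0.56 for *Il34*, which reversed without NCD replicate 1 (-0.190) and was higher on HFD under the other 12 alternatives. The pooled log2 ratio of *Csf2* (3.78) ranged from 3.09 to 4.29, with no value without NCD replicate 2, which holds all its NCD counts. *Csf2ra* relative to the macrophage markers reversed with 3 markers (-0.714, exact permutation p = 0.1). The other 6 ratios kept their direction under the alternatives run, but with 3 markers *Csf1r* moved from -0.32 to -1.25, *Csf2rb* from -0.47 to -1.41 and *Csf3r* from 1.14 to 0.20, and *Csf3r* was 1.95 without HFD replicate 1 and 0.56 without HFD replicate 3. The 3 markers rose more than the median of the 12, so each receptor ratio to them is lower on HFD. The cause of the other changes was not tested, except where the number of genes or mice shows it. The counting intervals of the pooled ratios of *Csf2* (4.36 to 69.4) and *Csf3* (9.13 to 23.3) leave out the spread between mice.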

Other observations

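Markers of other cells that make or receive colony-stimulating factors were read in the same libraries. Numbers called by DESeq2 and limma voom are in either direction, where they called 3904 and 5570 of all 15241 tested genes. Dendritic cell markers summed to 30.2 to 33.3 TMM-scaled CPM on NCD and to 195, 66.4 and 76.5 in HFD replicates 1, 2 and 3, mostly from *Itgax*, and none of 7 passed in edgeR (3 had an unadjusted p under 0.05, and DESeq2 and limma voom each called 3). The study used the product of *Itgax*, CD11c, to mark M1-like macrophages, so the sum is not particular to dendritic cells. Of the others, *Ccr7*, *Flt3* and *Cd209a* had log2 fold changes of 1.35, 1.13 and 0.43. *Zbtb46*, *Clec9a* and *Xcr1* had 0.29, 0.18 and -0.28. *Itgax* passed without NCD replicate 1 (3.20, adjusted p = 0.0441 from edgeR). Of 8 lymphocyte markers *Il7r* rose, by 4.05 on the log2 scale (adjusted p = 0.0228 from edgeR), while *Cd3e*, *Cd4* and *Cd8a* stayed between -0.35 and -0.01 without passing. Eosinophil markers, whose cells use the beta chain for interleukin 5, summed to at most 0.670 on NCD and 3.29 on HFD, and neither of the 2 tested passed in edgeR (unadjusted p under 0.05 in 2, DESeq2 and limma voom 2 each). *Ccr3* passed, among 3 tested, without NCD replicate 1 (3.86, adjusted p = 0.0247 from edgeR). Mast cell markers summed to 24.3 to 33.01 on NCD and 21.1 to 32.3 on HFD, and none of 6 passed in edgeR (unadjusted p under 0.05 in 2, DESeq2 0, limma voom 3).

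Of structural cells, *Col1a1* among 6 stromal markers rose (2.11, adjusted p = 0.0194 from edgeR) and *Msln* among 4 mesothelial markers (2.22, adjusted p = 0.0289 from edgeR). The other stromal markers did not pass, with *Col3a1*, *Pi16* and *Pdgfra* at 1.64, 1.27 and 0.73 and *Dpt* and *Dcn* at -0.03 and -0.18. *Col3a1* also passed without NCD replicate 1 (1.34, adjusted p = 0.0304 from edgeR), as did the endothelial *Pecam1* (0.55, adjusted p = 0.0496 from edgeR). The other endothelial markers did not pass in that fit, with *Vwf*, *Cdh5* and *Tie1* at 0.54, 0.26 and 0.23 and *Kdr* at -0.54. With 6 libraries, none of 5 endothelial markers passed in edgeR (unadjusted p under 0.05 in 0, DESeq2 0, limma voom 1), and none of 6 adipocyte markers (unadjusted p under 0.05 in 2, DESeq2 2, limma voom 3), although 3 of the adipocyte markers fell without NCD replicate 1. Epithelial and smooth muscle markers summed to 1231 and 5489 TMM-scaled CPM in NCD replicate 1 and to at most 145 and 626 in the other libraries. None of the 6 and 5 passed in edgeR (unadjusted p under 0.05 in 4 and 4, DESeq2 4 and 4, limma voom 1 and 3). *Epcam* and 3 smooth muscle markers, *Actg2*, *Cnn1* and *Myh11*, fell without NCD replicate 1 (adjusted p from 0.0126 to 0.0470 from edgeR).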
